A study of Mus musculus with 47 samples.

Results

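The 8 glutathione peroxidase genes of the mouse, Gpx1 to Gpx8, were followed through liver and sperm RNA of males descended from Scml2-KO fathers. They were taken by symbol from the count files of 10 libraries, and all 8 were listed there among 23416 genes. Ctrl-F1 and KO-F1 males were both wild-type for Scml2, an X-linked gene that sons do not receive from their father. They were born after intracytoplasmic injection of testicular sperm (ICSI) into BDF1 oocytes, the sperm coming from wild-type littermates for Ctrl-F1 and from Scml2-KO (-/y) C57BL/6 males for KO-F1. KO-F2 males were bred by natural mating of single KO-F1 males with C57BL/6 females. All males were 8 to 12 weeks old, and the labels give the background as BDF2 for F1 and BDF3 for F2. Liver was sequenced from Ctrl-F1 and KO-F1, and motile cauda epididymal spermatozoa separated by swim-up from Ctrl-F1, KO-F1 and KO-F2, with 2 libraries in each of the 5 groups. KO-F2 spermatozoa had no F2 control of their own and were set against Ctrl-F1. Generation, background and mode of conception (ICSI or natural mating) cannot be told apart from descent there. The labels name a sequencing run for KO-F2 spermatozoa and none for F1 spermatozoa, so whether the run differed is not known.

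Glutathione peroxidases reduce hydrogen peroxide and organic hydroperoxides to water and alcohols, in most members with glutathione as the electron donor. GPX1 is the abundant cytosolic enzyme of liver and most other tissues, GPX2 is that of the intestinal epithelium, and GPX3 is a secreted enzyme of plasma that the epididymis also makes. GPX4 reduces peroxides within phospholipid membranes and is made at high level in spermatids, where it becomes a structural protein of the sperm midpiece. GPX5 is secreted by the epididymal epithelium onto passing sperm, GPX6 is known from the olfactory epithelium, and GPX7 and GPX8 belong to the endoplasmic reticulum.

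The members differ at the codon of the residue that meets the peroxide. In Gpx1, Gpx2, Gpx3 and Gpx4 it is a TGA that is read as selenocysteine, and in Gpx5, Gpx6, Gpx7 and Gpx8 it is a cysteine codon, so that only the first 4 need selenium. The windows below show this codon in capitals with 12 bases of coding sequence on each side, read 5′ to 3′ on the coding strand from the RefSeq annotation of GRCm38.
Gpx1 (chr9:108339439-108339465, plus strand): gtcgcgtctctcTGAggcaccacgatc
Gpx2 (chr12:76795244-76795270, minus strand): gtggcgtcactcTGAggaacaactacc
Gpx3 (chr11:54907244-54907270, plus strand): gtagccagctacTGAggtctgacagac
Gpx4 (chr10:80054725-80054751, plus strand): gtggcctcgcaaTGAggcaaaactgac
Gpx5 (chr13:21291324-21291350, minus strand): gtggctacctatTGCggtctgacaatc
Gpx6 (chr13:21313765-21313791, plus strand): gtggcatccttcTGTggcctgacagct
Gpx7 (chr4:108403418-108403444, minus strand): gtagctagcgaaTGTggcttcacagac
Gpx8 (chr13:113045649-113045675, minus strand): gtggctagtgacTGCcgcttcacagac
Each window lies within 1 coding exon. The TGA or cysteine codon is number 73 of the reading frame in Gpx3, Gpx4, Gpx5 and Gpx6, and number 47, 40, 56 and 79 in Gpx1, Gpx2, Gpx7 and Gpx8. Over the translated reading frames, Gpx3 was closest to the cysteine members Gpx6 and Gpx5, with 67.0% and 65.6% of aligned residues shared. Gpx5 and Gpx6 shared 63.8% and Gpx1 and Gpx2 63.2%. Gpx5 and Gpx6 are neighbours on opposite strands, with 2737 bp between their 5′ ends.

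Reads of some members could be confused with other sequence. Of the 75-base windows of the Gpx4 transcript (882 bases), 68.4% occur elsewhere in the genome, in the pseudogene Gpx4-ps2 on chromosome 10 and within Hnrnpll on chromosome 17. Only uniquely aligned reads were counted, so Gpx4 counts are uncertain and its level relative to other members may be understated. Whether the loss was equal in the liver and sperm kits was not tested. In Gpx2, 12.0% of windows have a copy within Pgm2l1 on chromosome 7. Gpx7 shares 286 exonic bases, 23.6% of its transcript, with the antisense lncRNA Gm32297, and the sperm kit does not mark strand. Gpx8 lies on the opposite strand within the span of Cdc20b without sharing an exon. Gpx1, Gpx3, Gpx5 and Gpx6 had no repeated window and shared no exonic base with another gene.

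Liver libraries held 11339729 to 14278900 counts, F1 sperm libraries 1503733 to 2778171 and KO-F2 sperm libraries 8384266 and 11462105. The detection floor, set at 3 counts of a library, was 0.210 to 0.265 CPM (counts scaled to 1000000 per library) in liver, 1.08 to 2.00 CPM in F1 spermatozoa and 0.262 and 0.358 CPM in KO-F2 spermatozoa. The ribosomal RNA gene Rn45s took 15.7% to 28.7% of F1 sperm counts and 3.52% and 13.3% of KO-F2 sperm counts. Of 10 hepatocyte genes, all 10 had at least 10 counts in each liver library, and of 35 genes of late spermatogenesis, 32 to 35 did in each sperm library. Scml2 had 0 counts in the 4 liver libraries and at most 18 in a sperm library, and since all males are wild-type sons it does not check the labels.

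The family had a different leading member in each tissue. In Ctrl-F1 liver, Gpx1 had 2104 ± 91.6 CPM per kb of transcript (SD, n = 2, as for each mean below), Gpx4 had 146 ± 18.3, and the others had 2.06 or less. In Ctrl-F1 spermatozoa, Gpx3 had 5047 ± 507 CPM per kb, followed by Gpx4 with 216 ± 16.1, Gpx1 with 148 ± 34.7, Gpx5 with 26.3 ± 27.5 and Gpx8 with 11.3 ± 10.4, and Gpx7 and Gpx6 had 1.60 ± 0.829 and 1.31 ± 1.85. The libraries of Gpx5 and Gpx8, of Gpx7 and Gpx6, and in Ctrl-F1 liver those of Gpx7, Gpx3, Gpx6 and Gpx8 in neighbouring pairs, overlapped, so that their order there is not set. KO-F1 liver had the same 2 leading members, Gpx1 with 2172 ± 80.1 CPM per kb and Gpx4 with 152 ± 6.38, and the others had 1.94 or less.

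In KO-F1 spermatozoa the order per kb was Gpx3 with 32737 ± 17365 CPM per kb, Gpx1 with 471 ± 92.9, Gpx4 with 182 ± 2.79, Gpx5 with 51.7 ± 18.5, Gpx6 with 14.4 ± 1.02, Gpx8 with 7.79 ± 0.997 and Gpx7 with 2.37 ± 3.35. The place of Gpx4 in these orders is uncertain, since its count may be understated. In KO-F2 spermatozoa Gpx3 had 2413 ± 1811 CPM per kb, Gpx4 515 ± 39.6 and Gpx1 474 ± 176, the last 2 overlapping, and Gpx5 had 14.7 ± 6.41. Gpx6, Gpx8 and Gpx7 followed with 6.65 ± 1.25, 4.27 ± 3.25 and 2.77 ± 0.666, each overlapping with the next.

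**Figure D1:**
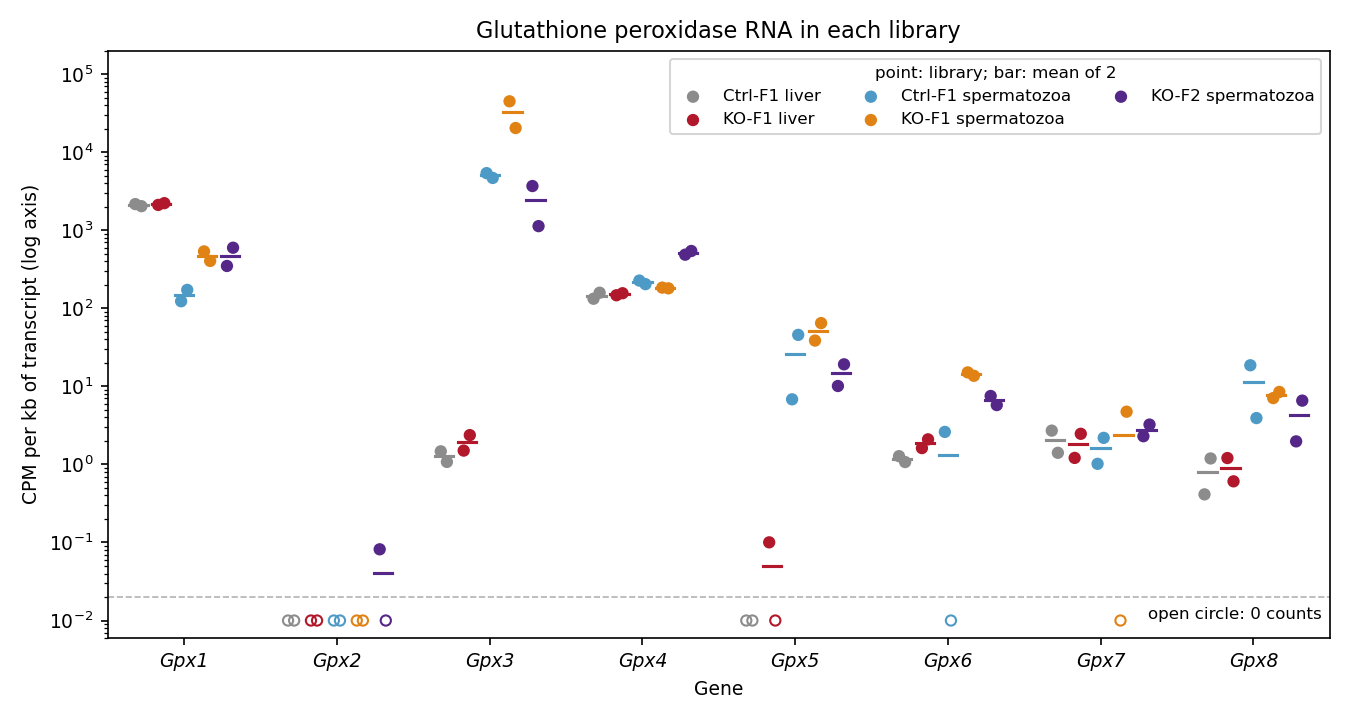
Level of each glutathione peroxidase gene as CPM per kb of transcript on a log axis, with 1 point per library and a bar at the mean of 2; open circles below the dashed line are libraries with 0 counts. Gpx1 leads in liver, between 2039 and 2229 CPM per kb, and Gpx3 leads in spermatozoa, between 1132 and 45016 CPM per kb.

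Counted as shares of the summed level per kb, Gpx1 made up 92.6% to 94.0% of the family in the 4 liver libraries, Gpx4 5.76% to 7.21% and Gpx3 0.0489% to 0.0993%. In Ctrl-F1 spermatozoa Gpx3 made up 93.4% and 91.6%, and in KO-F1 spermatozoa 98.3% and 96.8%. In KO-F2 spermatozoa its share was 81.1% and 49.0%, below each of the 4 F1 sperm libraries. Gpx4 took 10.7% and 23.5% and Gpx1 7.68% and 25.9% there, against at most 3.99% and 3.37% in an F1 sperm library. These shares depend on one another, so a high share of Gpx3 lowers those of the rest.

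**Figure D2:**
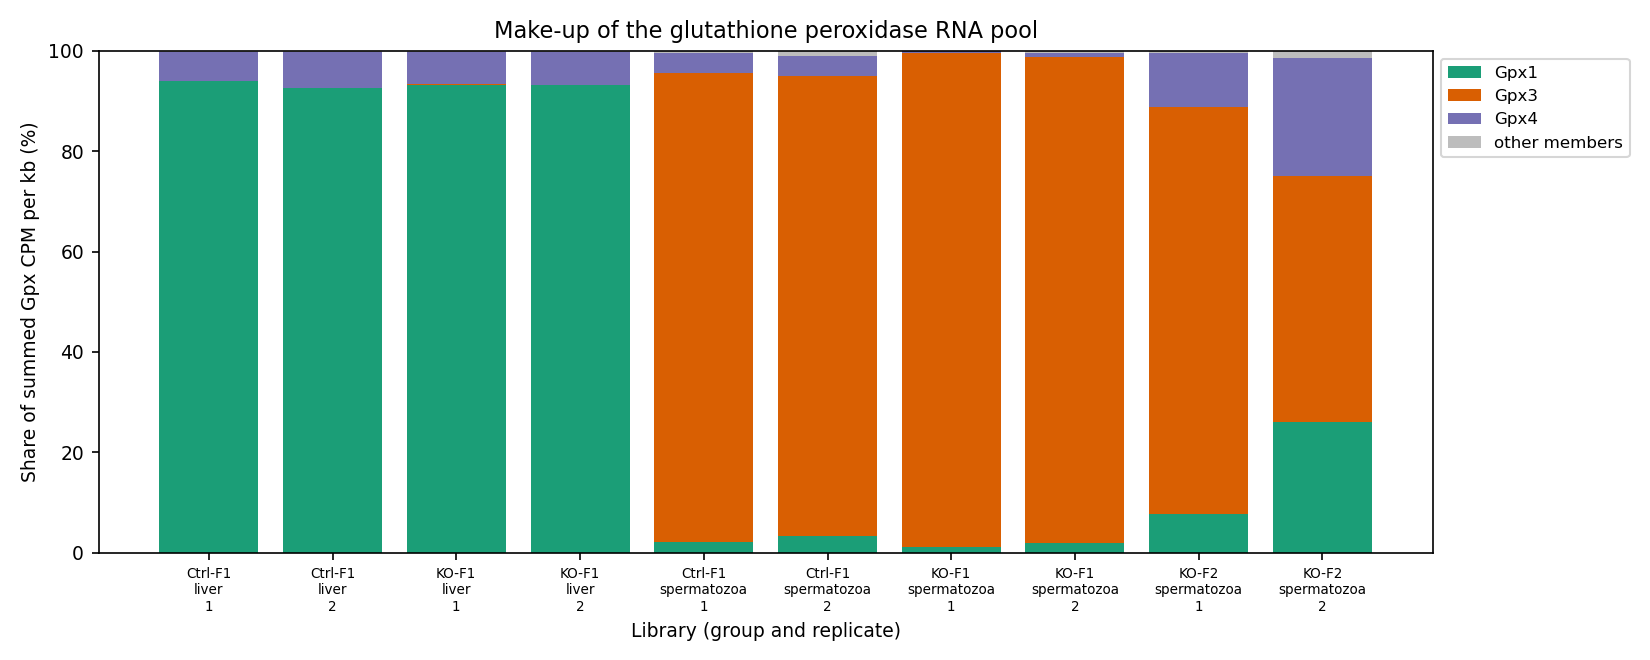
Share of each member in the summed glutathione peroxidase level (CPM per kb), in percent, as 1 stacked bar per library; Gpx2, Gpx5, Gpx6, Gpx7 and Gpx8 are drawn together. Gpx1 fills at least 92.6% of each liver bar, and Gpx3 fills 91.6% to 98.3% of the F1 sperm bars and 49.0% and 81.1% of the KO-F2 bars.

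Between Ctrl-F1 spermatozoa and Ctrl-F1 liver, the library kit and the tissue cannot be told apart. A call required a change of 2-fold or more with an adjusted p below 0.01 (edgeR quasi-likelihood test, Benjamini-Hochberg over all genes tested). Gpx3 was higher in spermatozoa, by 12.19 ± 0.59 (SE) on the log2 scale (edgeR adjusted p = 0.00121), and Gpx1 was lower, with a log2 fold change of -3.55 ± 0.40 (edgeR adjusted p = 0.00282). These 2 were the members called of 7 tested, where 30.2% of all genes tested were called, 18.6% higher and 11.6% lower in spermatozoa. The number of members at an unadjusted p under 0.05 was 5, against 59% of all genes. Gpx5 had 0 counts in both Ctrl-F1 liver libraries and 27 and 112 in Ctrl-F1 spermatozoa, and by the floor of 3 counts per library it was at least 202-fold higher in spermatozoa, or at least 52.5-fold without Ctrl-F1 spermatozoa replicate 2 and at least 351-fold without replicate 1. It did not pass edgeR's threshold (adjusted p = 0.0136), nor did Gpx8 (4.02 ± 1.02, edgeR adjusted p = 0.0267) or Gpx4 (0.83 ± 0.24, edgeR adjusted p = 0.0411). With 1 library left out, the log2 value of Gpx8 lay between 2.47 and 4.79. EdgeR called Gpx5 when any 1 of the 4 libraries was left out (adjusted p between 2.08e-07 and 0.00105), in fits that called 18.7% to 60.1% of all genes. It called Gpx8 without Ctrl-F1 spermatozoa replicate 2 (edgeR adjusted p = 8.82e-05), in the fit that called 60.1%. DESeq2 called 4 members, adding Gpx5 and Gpx8, where it called 37.7% of all genes. Gpx6 (0.48 ± 1.14) and Gpx7 (-0.16 ± 0.86) had adjusted p of 0.747 and 0.889 in edgeR.

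In liver, the question was whether sons of Scml2-KO males differed from sons of wild-type males. Gpx1 had 2266 and 2131 CPM in the Ctrl-F1 liver libraries and 2211 and 2329 CPM in the KO-F1 liver libraries, and the groups overlapped. Gpx4, at 117 and 140 CPM for Ctrl-F1 males against 130 and 138 CPM for KO-F1 males, overlapped too. Their log2 fold changes were 0.11 ± 0.18 (SE) and 0.13 ± 0.15, with edgeR adjusted p of 0.880 and 0.824. Gpx3 was low in liver, with 32 and 23 counts for Ctrl-F1 males against 28 and 41 for KO-F1 males (0.66 ± 0.48, edgeR adjusted p = 0.692). Gpx6 had 23 and 19 counts against 25 and 30 (0.72 ± 0.48, edgeR adjusted p = 0.661). Gpx7 had 18 to 47 and Gpx8 6 to 17 counts per liver library, and in both genes the direction turned when 1 library was left out. Gpx5 had 2 counts in KO-F1 liver replicate 1 and 0 in the other liver libraries, and Gpx2 had 0 in all 4. EdgeR called 0 of 6 members tested, with none at an unadjusted p under 0.05. DESeq2 called 0, and gave an adjusted p to Gpx1 and Gpx4 only. Among all genes, edgeR called 0% and had 9.41% at an unadjusted p under 0.05, and DESeq2 called 0.274% of those it adjusted. Gpx3 and Gpx6 were the 2 of 6 members whose groups did not overlap after TMM normalization, against 41.5% of all genes tested.

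Gpx3, the secreted enzyme, was among the most abundant RNAs of the sperm libraries. Which cells this RNA came from was not tested. It had 8227 and 7136 CPM in Ctrl-F1, 68514 and 31138 CPM in KO-F1, and 5622 and 1723 CPM in KO-F2. Both KO-F1 libraries lay above both Ctrl-F1 libraries, both KO-F2 libraries lay below them, and the KO-F1 libraries differed from each other more than the Ctrl-F1 libraries did. As a share of all counts, Gpx3 took 0.823% (95% Wilson interval 0.811% to 0.834%) and 0.714% (0.70% to 0.727%) in Ctrl-F1. In KO-F1 it took 6.85% (6.82% to 6.88%) and 3.11% (3.09% to 3.14%), and in KO-F2 0.562% (0.558% to 0.567%) and 0.172% (0.169% to 0.175%). These intervals treat each read as an independent draw, which PCR copies are not, so they may be too narrow even for counting error. They do not cover the spread between libraries. By counts, Gpx3 was gene number 9 in both Ctrl-F1 libraries, number 2 and number 3 in KO-F1, and number 16 and number 62 in KO-F2.

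For KO-F1 against Ctrl-F1 spermatozoa, the Gpx3 fold change was 4.68, or 2.23 ± 0.57 (SE) on the log2 scale, with an unadjusted p of 0.00429 and an edgeR adjusted p of 0.140, so the gene did not pass. DESeq2 called it, with a log2 fold change of 2.27 ± 0.37 and an adjusted p of 1.37e-06. Gpx3 was 1 of the DEGs that the study listed for these samples, so the call is not independent of the study. Over 11 alternatives the log2 value lay between 1.64 and 3.97 and the adjusted p between 1.37e-06 and 0.551. Of the 6 members tested, edgeR called 0, with 2 at an unadjusted p under 0.05 (Gpx1 and Gpx3). DESeq2 called 1, and gave an adjusted p to Gpx1, Gpx3, Gpx4 and Gpx5 only. Among all genes, edgeR called 0% and had 19.5% at an unadjusted p under 0.05, and DESeq2 called 7.8% of those it adjusted. The groups did not overlap for 4 of the 6 members after TMM normalization, against 54% of all genes.

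For KO-F2 against Ctrl-F1 spermatozoa, Gpx3 had a log2 fold change of -1.22 ± 0.61 (edgeR adjusted p = 0.425). Leaving out each library in turn moved it between -2.30 and -0.58. Here edgeR called 0 of 7 members, with 2 at an unadjusted p under 0.05 (Gpx1 and Gpx4), and DESeq2 called 0 as well. Among all genes, edgeR called 0% and had 14.9% at an unadjusted p under 0.05, and DESeq2 called 2.14%. The groups did not overlap for 4 of 7 members, against 48% of all genes. The comparisons of KO-F1 and of KO-F2 with Ctrl-F1 share the Ctrl-F1 libraries.

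The difference between generations was tested directly, KO-F2 against KO-F1 spermatozoa. Gpx3 was 9.81-fold lower in KO-F2, a log2 fold change of -3.29 ± 0.74 with an edgeR adjusted p of 0.0255, which passes 0.05, as 20.4% of all genes tested did, and not the call at 0.01. It passed the call without KO-F1 replicate 2 (edgeR adjusted p = 0.00203), where 19.2% of all genes did, and without KO-F2 replicate 1 (edgeR adjusted p = 0.0083), where 1.74% did, while without KO-F2 replicate 2 its edgeR adjusted p was 0.0515. DESeq2 called it (-3.33 ± 0.52, DESeq2 adjusted p = 6.32e-09), and each of the 11 alternatives kept the sign, from -5.45 to -2.62. EdgeR called 0 of 7 members, with 3 at an unadjusted p under 0.05 (Gpx3, Gpx4 and Gpx5), where it called 2.31% of all genes and had 36.8% at an unadjusted p under 0.05. DESeq2 called 2 members, Gpx3 and Gpx4, where it called 13.6%. The groups did not overlap for 4 of 7 members, against 66.2% of all genes.

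**Figure D3:**
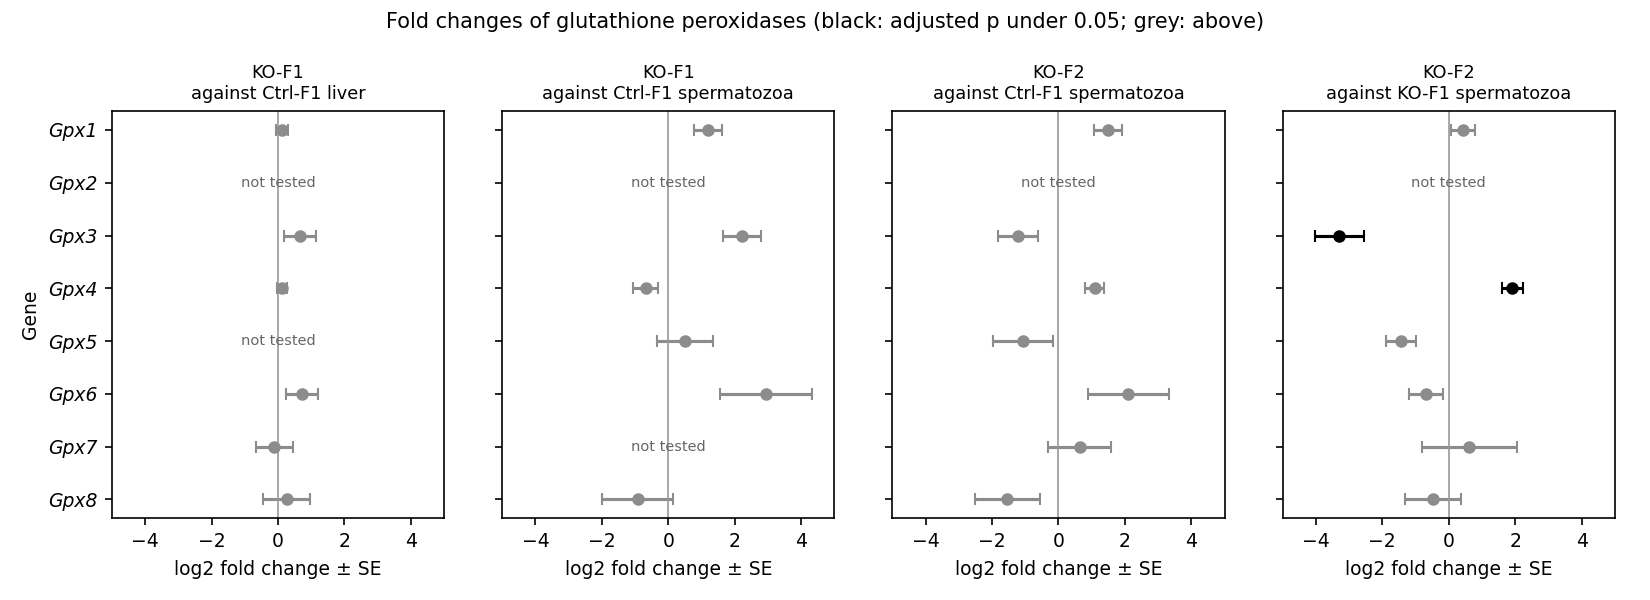
Log2 fold changes (edgeR, TMM normalization) with standard errors as bars for each member in 4 comparisons; black points have an adjusted p under 0.05. Gpx3 at -3.29 and Gpx4 at 1.91 between KO-F2 and KO-F1 spermatozoa are the black points, and the liver values all lie between -0.11 and 0.72.

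Gpx5 and Gpx6, the neighbouring cysteine members, were much less abundant than Gpx3. Gpx5 had 27 and 112 counts in Ctrl-F1 spermatozoa, 175 and 220 in KO-F1 and 189 and 262 in KO-F2, or 11.1 and 74.5 CPM, 63.0 and 106 CPM, and 16.5 and 31.2 CPM. The Ctrl-F1 libraries differed by more than the groups did, and KO-F2 lay within their range. For KO-F1 against Ctrl-F1 the log2 value was 0.50 ± 0.84 (edgeR adjusted p = 0.806), and it turned to -0.36 without Ctrl-F1 replicate 1 and to -0.02 without KO-F1 replicate 2. For KO-F2 against Ctrl-F1 it was -1.07 ± 0.90 (edgeR adjusted p = 0.655) and turned to 1.09 without Ctrl-F1 replicate 2. Both KO-F2 libraries lay below both KO-F1 libraries (-1.43 ± 0.46, edgeR adjusted p = 0.0662).

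Gpx6 had 8 and 0 counts in Ctrl-F1 spermatozoa, 53 and 36 in KO-F1 and 109 and 61 in KO-F2. In CPM these were 3.30 and 0, where the floor of the library at 0 is 2.00 CPM, then 19.1 and 17.3, and 9.51 and 7.28. Both KO groups lay above Ctrl-F1. The log2 fold changes against Ctrl-F1 were 2.95 ± 1.38 in KO-F1 (edgeR adjusted p = 0.286) and 2.11 ± 1.21 in KO-F2 (edgeR adjusted p = 0.488). Without Ctrl-F1 replicate 2, the library at 0, they were 2.13 and 1.34, and without Ctrl-F1 replicate 1 the remaining control is at 0 and the fitted values are no measure of size. Both KO-F2 libraries lay below both KO-F1 libraries (-0.68 ± 0.52, edgeR adjusted p = 0.384).

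Gpx4 had 200 and 180 CPM in Ctrl-F1 spermatozoa, 163 and 159 CPM in KO-F1 and 430 and 479 CPM in KO-F2. The KO-F1 libraries lay just below the Ctrl-F1 libraries and the KO-F2 libraries above all 4 F1 libraries. Against Ctrl-F1, the log2 fold change was -0.68 ± 0.38 in KO-F1 (edgeR adjusted p = 0.371) and 1.09 ± 0.28 in KO-F2 (edgeR adjusted p = 0.212). KO-F2 against KO-F1 gave 3.77-fold, or 1.91 ± 0.31, with an edgeR adjusted p of 0.0112 just above the threshold and a DESeq2 adjusted p of 1.24e-07. Without KO-F1 replicate 2 it passed the call (edgeR adjusted p = 0.00491), in the fit that called 19.2% of all genes.

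The level of Gpx4 was also set against that of the germ cell genes. Genes of late spermatogenesis, such as those for protamines, transition proteins and sperm tail proteins, took 144427 and 127760 CPM together in Ctrl-F1, 63327 and 48251 CPM in KO-F1 and 165972 and 164931 CPM in KO-F2. When libraries were scaled to this list, the median of all genes moved to 1.74 for KO-F1 against Ctrl-F1 and to -1.95 for KO-F2 against KO-F1, from 0.02 and 0.13. Gpx4 then had a log2 fold change of 1.03 ± 0.44 for KO-F1 against Ctrl-F1 (edgeR adjusted p = 0.115). For KO-F2 against KO-F1 it had -0.15 ± 0.33 (edgeR adjusted p = 0.712). This scaling shifts all genes alike, and relative to their median Gpx4 stayed in place, at -0.70 as reported and -0.71 when scaled in the former comparison and at 1.79 and 1.80 in the latter. Per summed count of the list, Gpx4 was at 0.139% and 0.141% for Ctrl-F1, 0.257% and 0.330% for KO-F1, and 0.259% and 0.291% for KO-F2. By that measure both KO groups lay above Ctrl-F1 and overlapped with each other, but the lower list sum of KO-F1 raises this ratio for any gene. Gpx3 kept its directions under this scaling, at 3.97 ± 0.85 for KO-F1 against Ctrl-F1 and -5.45 ± 1.03 for KO-F2 against KO-F1, or 2.23 and -3.50 relative to the median of all genes. In bulk RNA, fewer cells of a type and less RNA per cell cannot be told apart.

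**Figure D4:**
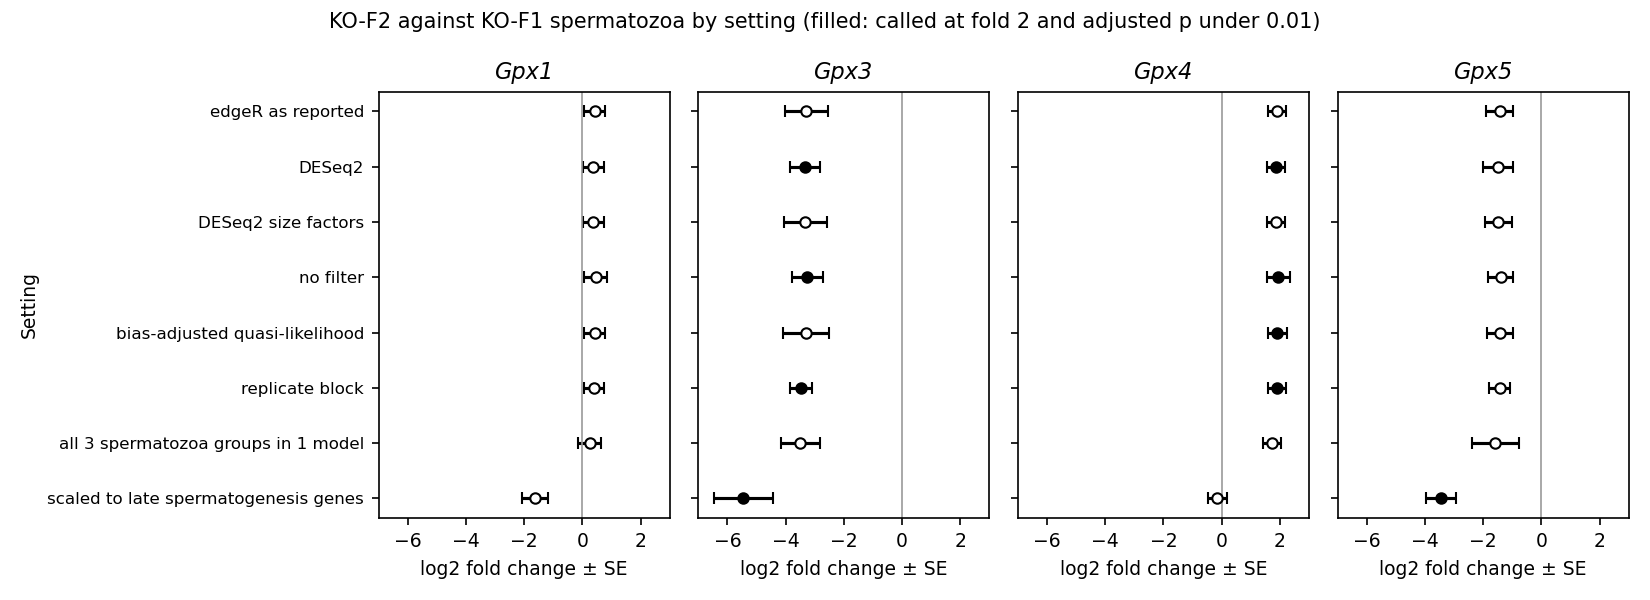
Log2 fold change and standard error of Gpx1, Gpx3, Gpx4 and Gpx5 between KO-F2 and KO-F1 spermatozoa under 8 settings, where filled points pass the call. Gpx3 lies left of 0 in each row, and Gpx4, at 1.91 in the test as reported, lies at -0.15 when libraries are scaled to late spermatogenesis genes, a setting in which the all-gene median is -1.95.

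Gpx1, the cytosolic enzyme, had 129 and 180 CPM in Ctrl-F1 spermatozoa, 561 and 423 CPM in KO-F1 and 365 and 626 CPM in KO-F2. All 4 libraries of the KO line lay above both Ctrl-F1 libraries. The log2 fold change was 1.20 ± 0.42 in KO-F1 (edgeR adjusted p = 0.181, DESeq2 0.0226) and 1.49 ± 0.41 in KO-F2 (edgeR adjusted p = 0.217, DESeq2 0.0374), and neither was called. KO-F2 and KO-F1 overlapped (0.43 ± 0.36, edgeR adjusted p = 0.432).

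Gpx2, the intestinal enzyme, had 1 count in KO-F2 replicate 1 and 0 in the other 9 libraries, and did not pass the filter on low counts. Gpx7 had 3 and 4 counts in Ctrl-F1 spermatozoa, 0 and 12 in KO-F1 and 32 and 33 in KO-F2. At 0 to 5.75 CPM it lay at or near the floor in F1 spermatozoa, and a difference of its level was not detectable at this depth. Its log2 fold change was 0.64 ± 0.95 for KO-F2 against Ctrl-F1 and 0.62 ± 1.44 for KO-F2 against KO-F1 (edgeR adjusted p of 0.826 and 0.792). Gpx8 had 46 and 6 counts in Ctrl-F1 spermatozoa, 20 and 18 in KO-F1 and 23 and 56 in KO-F2, with KO-F1 and KO-F2 both within or overlapping the range of the controls in CPM. Its edgeR adjusted p lay between 0.544 and 0.727 in the 3 sperm comparisons.

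Markers of other cells moved with some of these groups. The paper reports no expression of epididymal somatic markers in its F1 sperm RNA-seq, for a published marker list that was not compared with those used here. The 20 genes listed for epididymal principal cells, the secretory cells of the duct, summed to 22296 and 7457 CPM in Ctrl-F1 spermatozoa, 15764 and 15795 CPM in KO-F1 and 4019 and 1964 CPM in KO-F2, and 8 to 19 of them had at least 10 counts. Lcn6 and Teddm1 of this list were at 0 in each F1 sperm library, and Lcn5 in 3 of the 4. Gpx3 per summed count of this list was 0.369 and 0.957 for Ctrl-F1, 4.35 and 1.97 for KO-F1, and 1.40 and 0.877 for KO-F2. Crisp1 alone had 18255 and 5448 CPM in Ctrl-F1 and 2856 and 1260 CPM in KO-F2. The sum and this ratio rest largely on that gene in these 2 groups. The 12 genes of epididymal basal, clear and muscle cells summed to 157 and 262 CPM in Ctrl-F1, 202 and 402 CPM in KO-F1 and 56.3 and 106 CPM in KO-F2, with Krt5 at 0 in 4 of the 6 libraries and Trp63 in 3. EdgeR called none of the 16 and 9 genes of these lists tested between KO-F2 and KO-F1, with 9 and 4 at an unadjusted p under 0.05 (36.8% of all genes). DESeq2 called 5 and 2 lower and 1 and 0 higher (13.6% of all genes either way). Of the principal cell genes, 7 of the 16 had a positive log2 value there. Against Ctrl-F1, 10 of 16 tested were positive in KO-F2 (median 0.31, beside 0.07 for all genes). In KO-F1, 6 of 12 were (median 0.18, beside 0.02). EdgeR called none of these. DESeq2 called 4 lower in KO-F2 (2.14% of all genes either way) and 1 higher in KO-F1 (7.8%). The sums of both lists were lower in KO-F2 than in each F1 library, as Gpx3 was. Their part in the result was not tested. Lcn12, a lipocalin of the epididymis, had 37.9 and 31.9 CPM in Ctrl-F1 and 346 and 154 CPM in KO-F1 (2.37 ± 0.49, edgeR adjusted p = 0.140). Spink8, an epididymal protease inhibitor, had 5246 and 2571 CPM in KO-F1 and 591 and 207 CPM in KO-F2 (-2.83 ± 0.61, edgeR adjusted p = 0.0229). Cst8, an epididymal cystatin, had the opposite signs, with 61.4 and 57.2 CPM in Ctrl-F1, 38.2 and 22.5 CPM in KO-F1 and 114 and 95.5 CPM in KO-F2. Its log2 fold change was -1.42 ± 0.50 for KO-F1 against Ctrl-F1 (edgeR adjusted p = 0.184) and 2.22 ± 0.37 for KO-F2 against KO-F1 (edgeR adjusted p = 0.0117).

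The 12 leukocyte genes summed to 237 and 633 CPM in Ctrl-F1 spermatozoa, 350 and 442 CPM in KO-F1 and 2631 and 4402 CPM in KO-F2, where all 12 had at least 10 counts. EdgeR called 4 of them higher in KO-F2 than in KO-F1, where 2.11% of all genes were called higher, namely Cd79a of B cells, Cd14 and Lyz2 of myeloid cells and Ptprc of all leukocytes. Lyz2 had 98.3 and 181 CPM in KO-F1 and 1909 and 3217 CPM in KO-F2 (4.58 ± 0.53, edgeR adjusted p = 0.00911). Against Ctrl-F1, 12 of 12 tested genes of this list had a positive log2 value in KO-F2 and 0 of 9 in KO-F1. Its part in the Gpx1 values was not tested. The summed level of the 35 late spermatogenesis genes was lower in KO-F1 than in each other sperm library. The genes had a median log2 fold change of -1.72 for KO-F1 against Ctrl-F1 and of 2.31 for KO-F2 against KO-F1. EdgeR called none of the 34 tested in the former, with 29 at an unadjusted p under 0.05 (19.5% of all genes) and 22 called lower by DESeq2 (7.8% of all genes called either way), and called 8 of 35 higher in the latter (2.11% of all genes). Their part in the Gpx4 values was not tested.

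**Figure D5:**
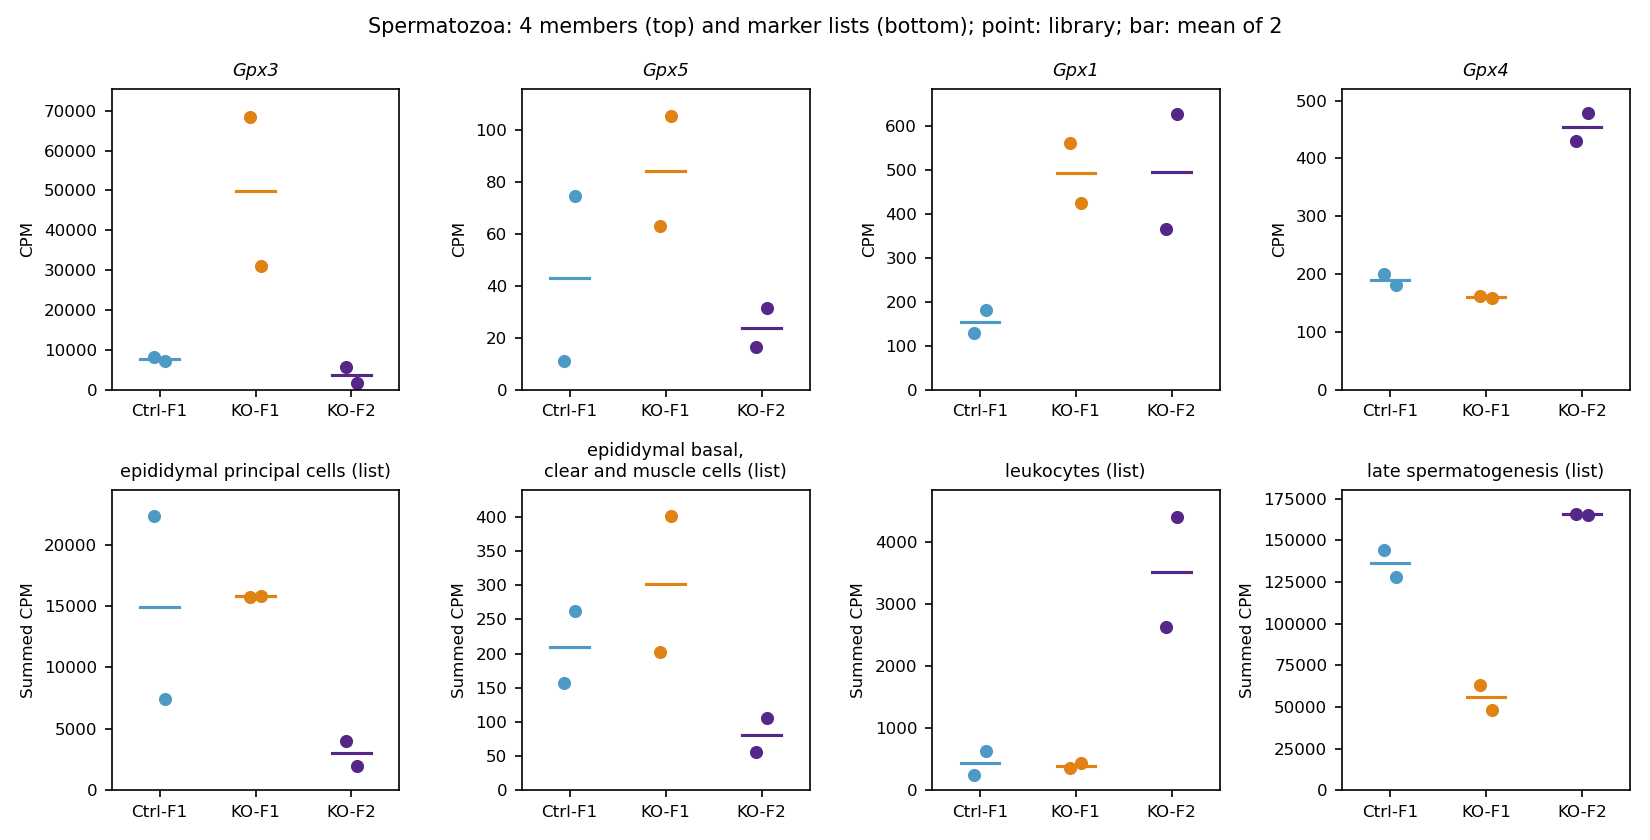
Top, CPM of Gpx3, Gpx5, Gpx1 and Gpx4 in the 6 sperm libraries; bottom, summed CPM of 4 marker lists in the same libraries, with points for libraries and bars for means of 2. Gpx3 peaks in KO-F1 at 68514 and 31138 CPM, where the principal cell list is at 15764 and 15795 CPM, and the leukocyte list is highest in KO-F2 at 2631 and 4402 CPM.

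Whether the effect of a KO father differed between spermatozoa and liver was tested as an interaction. The difference in log2 fold change was 1.46 ± 0.68 for Gpx3 (edgeR adjusted p = 0.377), 1.00 ± 0.44 for Gpx1 (edgeR adjusted p = 0.350) and -0.92 ± 0.37 for Gpx4 (edgeR adjusted p = 0.316). EdgeR called 0 of 7 members, with 1 at an unadjusted p under 0.05 (Gpx4), and DESeq2 called 0. Among all genes, edgeR called 0% and had 14.3% at an unadjusted p under 0.05, and DESeq2 called 2.09%. The larger Gpx3 value in spermatozoa was thus not shown to differ from that in liver, where Gpx3 had 23 to 41 counts.

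Genes around the family were described by 4 lists. The 13 genes of glutathione synthesis and recycling summed to 126 and 120 CPM in Ctrl-F1 spermatozoa, 323 and 266 CPM in KO-F1 and 143 in both KO-F2 libraries. EdgeR called none of the 10 or 11 tested in each comparison of sperm groups, with 1 at an unadjusted p under 0.05 for KO-F1 and 3 for KO-F2 against Ctrl-F1 and 6 for KO-F2 against KO-F1, where 19.5%, 14.9% and 36.8% of all genes were. DESeq2 called 1, Gclm, lower in KO-F2 than in KO-F1, where it called 13.6% of all genes. Their median log2 fold change was 0.59 for KO-F1 against Ctrl-F1, beside 0.02 for all genes, and -0.36 for KO-F2 against KO-F1, beside 0.13. Gclm, the modifier subunit of the rate-limiting enzyme of glutathione synthesis, had 24.7 and 35.9 CPM in Ctrl-F1, 115 and 99.7 CPM in KO-F1 and 25.6 and 29.6 CPM in KO-F2 (KO-F2 against KO-F1 -1.54 ± 0.32, edgeR adjusted p = 0.0196). Gclc, the catalytic subunit, had 19.8 and 14.0, 51.8 and 47, and 14.0 and 16.1 CPM in the same order. For both subunits KO-F1 lay above the other sperm groups, as Gpx3 did. Groups did not overlap for 54% of all genes in KO-F1 against Ctrl-F1 and for 66.2% in KO-F2 against KO-F1. Gclm and Gclc had edgeR adjusted p of 0.184 and 0.326 for KO-F1 against Ctrl-F1. The list was mixed, with 6 tested genes positive and 4 negative there, and 4 positive and 7 negative for KO-F2 against KO-F1.

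The 22 other genes of peroxide and superoxide removal, catalase, peroxiredoxins, thioredoxins and superoxide dismutases among them, had a median of 0.96 for KO-F1 against Ctrl-F1, beside 0.02 for all genes, with 15 positive and none called by edgeR, 10 at an unadjusted p under 0.05 (19.5% of all genes) and 3 called by DESeq2 (Prdx1, Sod2 and Txndc2, where it called 7.8% of all genes). For KO-F2 against KO-F1 the median was -0.83, beside 0.13, with 7 positive and none called by edgeR, 17 at an unadjusted p under 0.05 (36.8% of all genes) and 4 called higher and 7 lower by DESeq2 (13.6% of all genes). Prdx1, a cytosolic peroxiredoxin, had 135 and 123 CPM in Ctrl-F1 and 573 and 378 CPM in KO-F1 (1.42 ± 0.39, edgeR adjusted p = 0.142). Sod2, the mitochondrial superoxide dismutase, had 72.5 and 66.5 CPM against 360 and 209 CPM (1.57 ± 0.42, edgeR adjusted p = 0.141). Srxn1, which repairs oxidised peroxiredoxins, had 465 and 384 CPM in KO-F1 and 86.8 and 84.2 CPM in KO-F2 (-1.89 ± 0.31, edgeR adjusted p = 0.0113). The thioredoxins and the thioredoxin reductase of spermatids had values of the opposite sign. Txndc2 had 327 and 179 CPM in Ctrl-F1 and 92.9 and 81.5 CPM in KO-F1 (-1.96 ± 0.42, edgeR adjusted p = 0.140). Txndc8 (3.62 ± 0.58, edgeR adjusted p = 0.0111) and Txnrd3 (1.77 ± 0.34, edgeR adjusted p = 0.0163) had positive values for KO-F2 against KO-F1, at 29.6 and 21.8 against 3.60 and 1.92 CPM and at 69.7 and 63.5 against 29.5 and 23.0 CPM.

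Selenium enters the first 4 members through a dedicated machinery. The 10 genes of selenoprotein synthesis and selenium supply had medians of 0.29 for KO-F1 against Ctrl-F1 and -0.57 for KO-F2 against KO-F1, beside 0.02 and 0.13 for all genes. EdgeR called none, with 1 and 2 at an unadjusted p under 0.05 (19.5% and 36.8% of all genes), and DESeq2 called 0 and 2 (7.8% and 13.6%). Sephs2, which makes the selenium donor, had 9.07 and 27.9 CPM in Ctrl-F1 and 97.9 and 83.9 CPM in KO-F1 (1.83 ± 0.65, edgeR adjusted p = 0.189). Of the 13 other selenoproteins, 11 were found in the files and 10 tested in each comparison of sperm groups, with medians of 0.44 and -0.12 in the same 2 comparisons. EdgeR called none, with 1 at an unadjusted p under 0.05 in each, and DESeq2 called 0 and 1, beside the same shares of all genes. Against liver, Ctrl-F1 spermatozoa had 3 of 9 genes of the supply list called lower, Sepp1 (selenoprotein P, the plasma carrier), Scly and Sephs2. Among other selenoproteins 3 of 11 were called lower and 1 higher, and of the glutathione list 3 of 11 were lower and 2 higher. In the list of other peroxide removal 8 of 22 were lower and 3 higher. Of all genes, 11.6% were called lower and 18.6% higher. In liver, none of the tested genes of the 4 lists was called between KO-F1 and Ctrl-F1 by edgeR or DESeq2, with 1 to 3 of each list at an unadjusted p under 0.05 in edgeR (9.41% of all genes). Their medians in edgeR lay between 0.09 and 0.20, beside -0.01 for all genes, and that of other selenoproteins was -0.12 in DESeq2, which adjusted 8 of them.

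Across the 6 sperm libraries, genes among the most like Gpx3 by Pearson r of log2(TMM-normalized CPM + 1) were Erbb2 (0.992), Tmem159 (0.990), Brwd1 (0.988) and Wfdc16 (0.985), among 7614 genes with a mean of at least 10 CPM. Those most like Gpx4 were Abi3 (0.995), Ndufa13 (0.995), Cbl (0.994), Phospho1 (0.994) and Map1lc3a (0.993). Those most like Gpx5 were Zbtb20 (0.999), Tceb3 (0.992), Zyx (0.991), Snapin (0.990) and Islr (0.990). With 6 libraries in 3 groups such values are reached by many genes, and 69, 141 and 47 genes had r above 0.95 with Gpx3, Gpx4 and Gpx5. They are descriptions, and the points share their group, the KO-F2 libraries also their greater depth.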

How the data were processed

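The authors sequenced 75 bp from 1 end, mapped the reads on GRCm38 by HISAT2 2.1.0 (default settings), counted uniquely aligned reads per gene with featureCounts and deposited 1 table of raw counts per library. The annotation and strand setting are not given in the sources used here. Liver libraries came from stranded mRNA, and sperm libraries from total RNA through PCR-amplified cDNA without strand marking. Intervals treat each read as an independent draw, which PCR copies are not, and leave out the spread between libraries. Lines of the 2 repeated symbols (4 lines) were not used. The other 37 of 47 labelled samples were not analysed here.

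Tests were edgeR 4.0.16 (R 4.3.3) with TMM, filterByExpr at its defaults (minimum count 10, minimum total 15) and quasi-likelihood F tests with Benjamini-Hochberg adjustment over all genes tested. A call needed a 2-fold change and an adjusted p below 0.01, and SE was derived from the F statistic. Each comparison was fitted on its own 4 libraries, and the interaction on 8. Shares of counts carry 95% Wilson intervals. Transcript lengths and sequences are from the RefSeq annotation of GRCm38.p6. The paper describes the 2 libraries of a group as independent biological replicates, and the labels add only a replicate number. The p-values set each group difference against a variability estimated from these libraries, with information shared across genes. An exact permutation test of 2 against 2 cannot go below 0.333. Alternatives were DESeq2 1.42.0, its size factors in edgeR, no filter, the bias-adjusted test, a replicate block, all 3 sperm groups in 1 model, scaling to late spermatogenesis genes, an adjusted p under 0.05 and leaving out each library. The scripts were tested on simulated data. Members, lists and alternatives were chosen with earlier results of these data known. From each list at most 3 genes per comparison, with the smallest adjusted p, and any called gene could be named. Genes of like pattern were the 5 with the highest r, of which 1 is not reported here.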

Additional observations from a re-analysis of the deposited data

Results flagged for a closer look

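In 2 members the level differed between generations by a direct test, KO-F2 against KO-F1 spermatozoa, at an edgeR adjusted p under 0.05. Of all genes tested, 20.4% passed this, and neither member passed edgeR's call at 0.01. Gpx3 had a log2 fold change of -3.29 (edgeR adjusted p = 0.0255), with both KO-F2 libraries below both KO-F1 libraries. Gpx4 had 1.91 (edgeR adjusted p = 0.0112), with both KO-F2 libraries above both KO-F1 libraries, and was at -0.15 when libraries were scaled to late spermatogenesis genes, which moved the median of all genes to -1.95. The cause was not tested. Generation, background, mode of conception (ICSI or natural mating) and library depth cannot be told apart in this comparison. For it, the labels give no sequencing run of the KO-F1 libraries.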

How the results depend on the processing

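Of the 428 log2 fold changes of members recomputed under alternatives, 378 kept their direction and their side of the threshold. The number of members called moved as follows. KO-F1 against Ctrl-F1 spermatozoa went from 0 to 1 with DESeq2. KO-F2 against Ctrl-F1 went from 0 to 2 with a replicate block (Gpx1, adjusted p = 0.000638, and Gpx3, 0.00404), where 2.75% of all genes were called. KO-F2 against KO-F1 went from 0 to 2 with DESeq2 and without the filter (13.6% of all genes called in each), with a replicate block (6.06%) and at an adjusted p under 0.05, to 1 with the bias-adjusted test (11.1%) and to 3 under scaling to late spermatogenesis genes (Gpx3, Gpx5 and Gpx6, with 33.4% of all genes called). Without 1 library it came to between 0 and 2 (2 without KO-F1 replicate 2, where 19.2% of all genes were called, and 1 without KO-F2 replicate 1, where 1.74% were). Ctrl-F1 spermatozoa against liver went from 2 to 4 with DESeq2 (37.7%) and at an adjusted p under 0.05, to 3 with a replicate block (23.5%) and with the bias-adjusted test (37.6%), and to between 3 and 4 without 1 library (18.7% to 60.1%). The liver and interaction counts stayed at 0. The labels tie no same-numbered libraries to 1 animal, their deviations correlated between -0.18 and 0.15, the block moved no other count, and a crossed block in liver, chosen after seeing the data, called 0 members. In fits without 1 library the lone library of a group is assumed to vary like the others.

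Signs turned in 25 values. Scaling to late spermatogenesis genes, which shifted the median of all genes to 1.74 and -1.95 in these comparisons, gave 1.03 for Gpx4 and 0.91 for Gpx8 in KO-F1 against Ctrl-F1 spermatozoa, and -1.63 for Gpx1, -0.15 for Gpx4 and -1.36 for Gpx7 in KO-F2 against KO-F1; relative to that median each of the 5 kept its sign. The replicate block gave -0.13 for Gpx6 between tissues and -0.87 for Gpx7 in the interaction. Leaving out 1 library turned members of low counts, Gpx5 to Gpx8, and no other. Over these fits, Gpx7 lay between -0.75 and 0.51 and Gpx8 between -0.27 and 1.13 in liver, and Gpx5 between -0.36 and 2.62 and Gpx8 between -1.57 and 0.43 in KO-F1 against Ctrl-F1 spermatozoa. Gpx5 lay between -1.90 and 1.09 in KO-F2 against Ctrl-F1. In KO-F2 against KO-F1, Gpx7 lay between -0.47 and 7.73 and Gpx8 between -1.48 and 0.16. The highest Gpx7 value came with its remaining KO-F1 library at 0 and is no measure of size. Between tissues, Gpx6 lay between -6.89 and 1.22, the lowest with its remaining sperm library at 0, and Gpx7 between -0.95 and 0.26. In the interaction, Gpx5 lay between -3.18 and 0.45, Gpx7 between -6.93 and 1.25 and Gpx8 between -2.19 and 0.17. The causes were not tested. At 3 counts of F1 sperm libraries, levels under 1.08 to 2.00 CPM could not be detected.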
